A study of Mus musculus with 6 samples.

Results

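A set of 45 genes of mitosis and the G2 phase was followed in mouse bone marrow-derived macrophages (BMDMs) that had shared a culture with neutrophils. The members were chosen by gene symbol, as genes known to act in G2 or in mitosis. The rule uses no measured value, but the list was chosen with earlier results of these data known, so it gets no test as a set. Each of the 45 symbols matched 1 row of the 55335 in the table, and all 45 reached the mean of 0.5 FPKM required for testing. FPKM counts fragments per kilobase and corrects for the size of the library, so levels can be set side by side between genes.

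Cells that have copied their DNA enter mitosis when the kinase CDK1 is bound by cyclin A or cyclin B, and they leave it when the anaphase-promoting complex (APC/C), a ubiquitin ligase, marks cyclin B and securin for destruction. Many of the genes needed for this are transcribed together late in the cell cycle. In quiescent cells the DREAM complex holds them down through promoter elements named CHR (cell cycle genes homology region), and in cycling cells MYB-MuvB and FOXM1 act through the same elements, often beside CCAAT boxes, which bind the factor NF-Y. Macrophages of bone marrow cultures divide in response to macrophage colony-stimulating factor (M-CSF) and slow down when activated, and transcripts of this kind are commonly read as a mark of cycling cells.

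The BMDMs of all 6 libraries came from *Cd177* WT mice (male C57BL/6 animals of 8 weeks, per the methods) and were grown from bone marrow for 7 days with 25 ng/ml M-CSF. They were then kept for 24 h with neutrophils taken by magnetic sorting from the injured spinal cord at 3 days post-injury (dpi), from *Cd177* WT animals for 3 libraries and from *Cd177* KO animals for 3 others, and were recovered by flow sorting of Ly6G-negative cells, a gate meant to leave neutrophils out. The comparison asks what the loss of the neutrophil surface protein CD177 in the added neutrophils changes in the macrophages. Macrophages cultured alone are not analysed here, the labels do not say whether the replicates are separate cultures or animals, and the p-values therefore measure only the spread between these libraries.

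The promoters of 5 members are shown with the one of *Pttg1*, the single member that did not pass the test. Matches are described for 250 bases before to 50 bases after the start, from RefSeq on GRCm38.p6, in the direction of the gene. Capitals mark CHR-type hexamers, in the usual form TTTGAA or in the variant form TTTAAA or TTCGAA, the only forms counted as hexamers here. They also mark the box CCAAT, which on the opposite strand reads ATTGG, and both kinds of motif were searched on both strands. The windows are chr13:100786437-100786736 (minus strand) for *Ccnb1*, chr9:70421505-70421804 (minus) for *Ccnb2*, chr10:69352863-69353162 (minus) for *Cdk1*, chr4:118437294-118437593 (minus) for *Cdc20*, chr7:122159185-122159484 (plus) for *Plk1* and chr11:43425932-43426231 (minus) for *Pttg1*.
Ccnb1: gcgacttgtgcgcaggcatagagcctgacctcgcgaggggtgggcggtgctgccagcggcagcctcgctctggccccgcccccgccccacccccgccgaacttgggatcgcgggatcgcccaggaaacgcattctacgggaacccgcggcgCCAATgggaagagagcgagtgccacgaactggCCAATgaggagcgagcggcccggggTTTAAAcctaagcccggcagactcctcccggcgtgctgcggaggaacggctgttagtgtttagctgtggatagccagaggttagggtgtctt
Ccnb2: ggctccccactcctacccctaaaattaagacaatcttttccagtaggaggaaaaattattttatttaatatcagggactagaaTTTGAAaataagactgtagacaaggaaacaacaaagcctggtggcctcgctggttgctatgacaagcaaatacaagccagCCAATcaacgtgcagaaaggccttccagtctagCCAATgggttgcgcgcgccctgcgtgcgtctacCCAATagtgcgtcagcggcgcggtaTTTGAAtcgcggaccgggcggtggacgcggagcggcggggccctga
Cdk1: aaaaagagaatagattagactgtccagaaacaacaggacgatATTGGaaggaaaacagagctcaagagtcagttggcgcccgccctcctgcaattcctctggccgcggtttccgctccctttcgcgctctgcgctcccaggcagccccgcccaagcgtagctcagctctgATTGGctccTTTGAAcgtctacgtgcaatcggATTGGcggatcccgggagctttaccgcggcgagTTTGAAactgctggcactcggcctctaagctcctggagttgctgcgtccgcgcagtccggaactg
Cdc20: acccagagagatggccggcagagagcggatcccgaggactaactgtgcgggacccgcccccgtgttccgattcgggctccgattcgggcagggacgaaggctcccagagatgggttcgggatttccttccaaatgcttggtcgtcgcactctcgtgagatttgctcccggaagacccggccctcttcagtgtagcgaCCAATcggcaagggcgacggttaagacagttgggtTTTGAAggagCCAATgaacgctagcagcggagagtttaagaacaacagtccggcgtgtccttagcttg
Plk1: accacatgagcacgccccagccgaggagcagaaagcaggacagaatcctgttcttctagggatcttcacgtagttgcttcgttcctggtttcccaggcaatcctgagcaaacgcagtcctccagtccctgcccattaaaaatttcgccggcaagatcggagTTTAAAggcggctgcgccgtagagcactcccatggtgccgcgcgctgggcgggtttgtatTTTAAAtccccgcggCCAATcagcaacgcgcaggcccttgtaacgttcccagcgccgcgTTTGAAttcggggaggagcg
Pttg1: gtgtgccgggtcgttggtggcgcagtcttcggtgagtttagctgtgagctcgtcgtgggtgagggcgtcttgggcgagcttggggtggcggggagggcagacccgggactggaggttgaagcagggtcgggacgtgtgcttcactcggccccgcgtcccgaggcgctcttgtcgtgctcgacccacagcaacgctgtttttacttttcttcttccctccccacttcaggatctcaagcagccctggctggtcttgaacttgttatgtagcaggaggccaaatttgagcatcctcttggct

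The first 5 promoters share a hexamer near the start, which is position 0 in the distances given here. In *Ccnb1* it began at -42, in *Cdc20* at -18, in *Cdk1* at -15 and in *Ccnb2* at 4, and *Plk1* held hexamers at -29 and 30. *Ccnb2* had CCAAT boxes at -87, -54 and -21, and *Ccnb1* had a pair at -99 and -67. The *Pttg1* window held none of the 3 hexamers and no CCAAT box, but another variant form, CTTGAA, began at 1. CTTGAA was searched after the values were seen and was in 12.2% of the member promoters, beside 9.74% of those of tested genes. This promoter was chosen for display after the values of the gene were seen. The gene as annotated in GENCODE M21 (chromosome 11 from 43420250 to 43426251) reaches further upstream than the start used and covers the whole window. No match says only that these letters are not in this window.

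RefSeq promoters were found for 39 of the 45 members, 41 promoters in all, and *Smc4*, *Kif20a*, *Foxm1*, *Ccna2*, *Aurkb* and *Tpx2* had no entry. A CHR-type hexamer was in 34 of the 41 (82.9%), against 21.3% of the 11792 promoters of tested genes and 28.8% of all 32851 promoters in the table. TTTGAA was the commonest form, in 73.2% of the member promoters and in 12.1% of those of tested genes. CCAAT on either strand was in 73.2% against 37.7%, and all 30 of these member promoters also held a hexamer, a combination present in 8.30% of the promoters of tested genes. The motifs overlapped in 1 member promoter.

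Member hexamers lay close to the start. A hexamer beginning within 50 bases of the start was in 75.6% of the member promoters and in 5.70% of those of tested genes. The promoters of other genes of mitosis and of DNA replication lay between. Of 80 promoters of other mitosis genes a hexamer was in 50, within 50 bases of the start in 37 and together with CCAAT in 32. Of 47 promoters of replication genes these counts were 16, 7 and 10. The differences between the lists were not tested. At least 2 CCAAT boxes were in 46.3% against 14.3%, and 2 boxes on 1 strand at a spacing of 31 to 34 bases were in 17.1% against 1.64%. The limits of 50 bases and of 31 to 34 bases were chosen after the positions were seen. None of the 3 hexamers was found for *Mad2l1*, *Melk*, *Ncaph*, *Nuf2*, *Nusap1*, *Tacc3* and *Pttg1*. The first 6 of these were higher in the KO-labelled libraries, as were all the members with a hexamer. A match describes the sequence and is no evidence that a factor was bound in these cells.

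**Figure D1:**
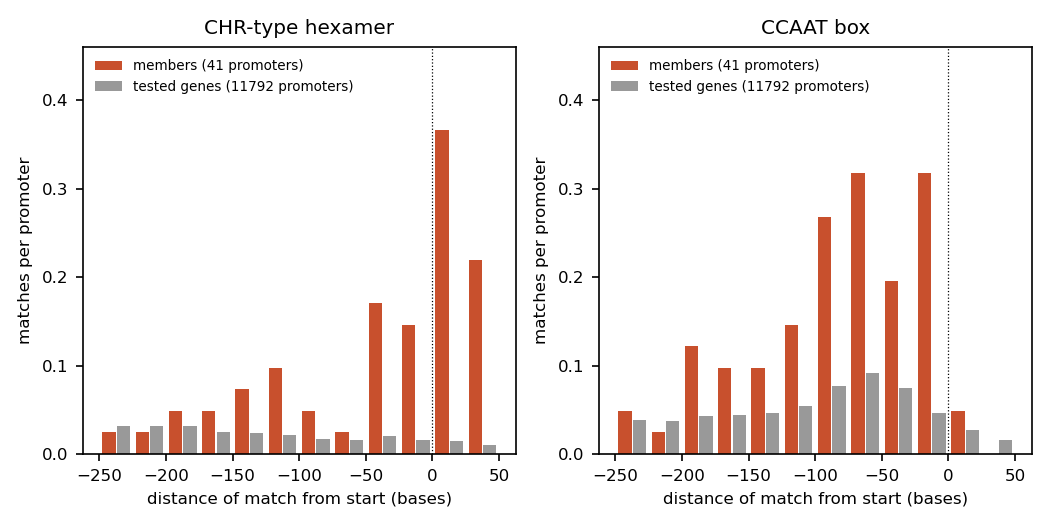
Matches per promoter of a CHR-type hexamer (left) and of CCAAT (right), both strands, in bins of 25 bases by the distance in bases from the start, for the 41 member promoters (red) and the 11792 promoters of tested genes (grey). Member hexamers pile up around the start, within 50 bases of it in 75.6% of promoters, and member CCAAT boxes lie mostly before it.

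If the commonest step of the low values is 1 fragment, the depth was 17600000 to 20300000 fragments per library, a rough figure since no more than 43.6% of low values came within 0.1 of whole multiples, and the FPKM columns summed to between 302532 and 340717. Principal components set the groups apart first (70.8% of the variance), and then replicate 3 of either group from the rest (13.5%). *Cd177* itself had 0.544, 0.309 and 0.521 FPKM in WT-labelled replicates 1, 2 and 3 and 1.79, 1.84 and 2.28 FPKM in the KO-labelled ones (limma adjusted p = 0.000827). Since the BMDMs were WT it does not check their genotype, but its level ran against the labels, and directions are given between libraries as labelled. Macrophage markers were abundant in every library, with *Csf1r* at 232 to 293 FPKM, *Cd68* at 456 to 587 FPKM and *Lyz2* at 4460 to 6590 FPKM.

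Of the 45 members, 44 were higher in the KO-labelled libraries at an adjusted p under 0.05 (limma on log2(FPKM + 0.5), Benjamini-Hochberg over 13367 genes), 0 were lower (also 0 at an unadjusted p under 0.05) and 1, *Pttg1*, did not pass. Of all genes tested, 27.1% were higher and 10.5% were lower at this threshold. After scaling by the median of ratios 43 members were higher, beside 16.1% of all genes higher and 16.6% lower. The median log2 fold change of the members was 1.04, against 0.19 over all tested genes, so that the members lay 0.85 above the shift of the whole table, a difference that ran from 0.76 to 1.01 under the other scalings, filters and pseudocounts tried. The scale understates the change of low genes. As a ratio of mean FPKM the members other than *Pttg1* rose between 1.62-fold (*Aurka*) and 3.56-fold (*Kif23*), with a median of 2.40 over all 45 and more than 2-fold in 41. At the fold and p limits that the study used for its own calls, a fold above 2 (here on the log2(FPKM + 0.5) scale) and an unadjusted p under 0.05, 26 members passed as higher, beside 6.68% of all tested genes.

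No value of a KO-labelled library reached down to the WT-labelled range in 44 members, where 37.5% of all tested genes had all 3 KO-labelled libraries above all 3 WT-labelled ones. Summed over the members, expression was 104, 102 and 111 FPKM in WT-labelled replicates 1, 2 and 3 and 234, 235 and 234 FPKM in the KO-labelled ones. These sums took 0.0325% to 0.034% of a WT-labelled column and 0.0727% to 0.077% of a KO-labelled one. For a single sum, 3 libraries against 3 cannot give an exact permutation p below 0.1. In bulk RNA, more cells in G2 or mitosis and more of these transcripts in each such cell cannot be told apart.

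Replicate spread was small beside these differences. The median standard deviation within groups was 0.13 on the log2 scale for the members and 0.18 for all tested genes. Relative to the mean the KO-labelled libraries were the tighter group, with a standard deviation under 0.1 of the mean in 35 members, against 12 in the WT-labelled libraries. The levels differed as well, with a median over members of 4.48 FPKM in the KO-labelled means and 1.91 FPKM in the WT-labelled ones. Whether the smaller relative spread follows from the level was not tested. WT-labelled replicate 3 held the highest WT value for 20 members, replicates 1 and 2 for 12 and 13. Its FPKM column also had the largest sum, 340717, and the share of the members in it, 0.0325%, was the lowest. In the KO-labelled libraries the highest values were spread over the replicates, for 14, 15 and 16 members.

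**Figure D2:**
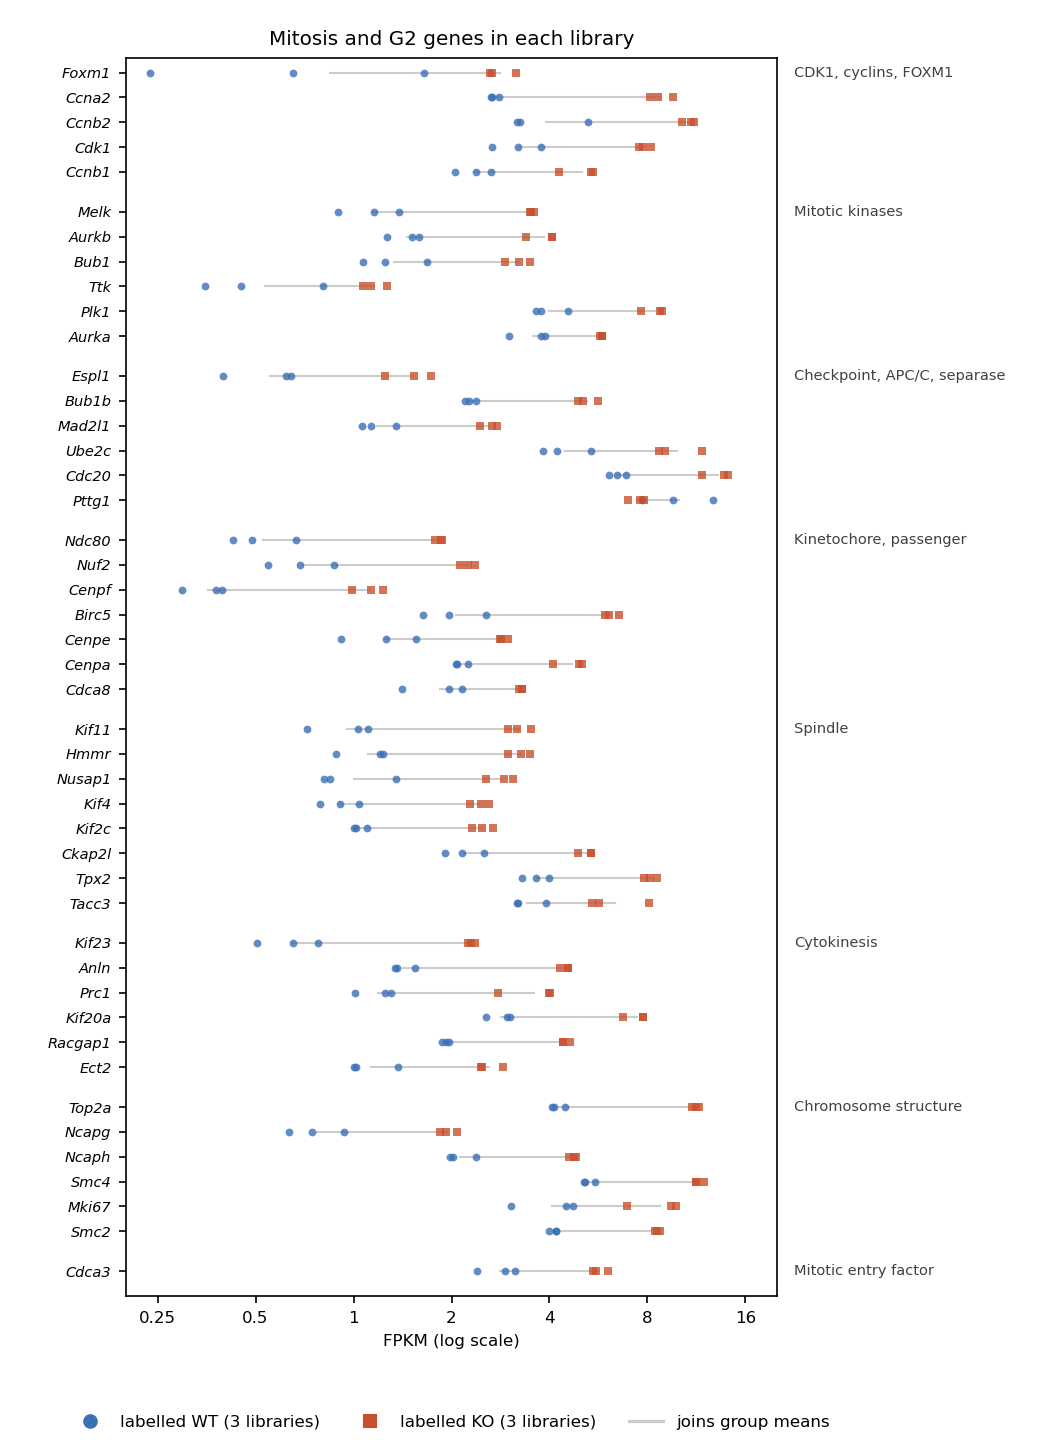
FPKM (log axis) of each of the 45 members in every library, by role, with blue circles for the 3 WT-labelled and red squares for the 3 KO-labelled libraries and a grey line joining the group means. The squares lie to the right of all circles in 44 members and to the left or among them in *Pttg1*.

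The drivers of mitotic entry led the set. All 5 were higher in the KO-labelled libraries, and the median of their log2 fold changes was 1.38, the highest of the role groups. *Ccna2* (ENSMUSG00000027715, chromosome 3 from 36564865 to 36572150 in GENCODE M21, GRCm38), cyclin A2, had 2.65, 2.66 and 2.80 FPKM in WT-labelled replicates 1, 2 and 3 and 8.17, 8.60 and 9.55 FPKM in the KO-labelled ones. The groups were far apart, and its log2 fold change of 1.53 (standard error, SE, 0.10, limma adjusted p = 5.72e-05) was the largest of the members. *Cdk1* (ENSMUSG00000019942, chromosome 10 from 69335146 to 69352938), the kinase of mitotic entry, had 2.67, 3.77 and 3.21 FPKM against 7.53, 7.74 and 8.18 FPKM. Its lowest KO-labelled value lay well above the highest WT-labelled one, with a log2 fold change of 1.17 (SE 0.13, limma adjusted p = 0.000613).

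*Ccnb2* (ENSMUSG00000032218, chromosome 9 from 70407692 to 70421547), cyclin B2, had 3.25, 3.18 and 5.27 FPKM in the WT-labelled libraries and 11.1, 10.2 and 10.9 FPKM in the KO-labelled ones. Replicate 3 was the high WT-labelled library, and the log2 fold change was 1.38 (SE 0.18, limma adjusted p = 0.00143). *Ccnb1* (ENSMUSG00000041431, chromosome 13 from 100778650 to 100786570), cyclin B1, had 2.65, 2.05 and 2.38 FPKM against 4.29, 5.43 and 5.35 FPKM. It moved less than cyclin B2, with a log2 fold change of 0.95 (SE 0.13, limma adjusted p = 0.0019), and 4 other genes of the annotation match its transcript at 95% identity or more over at least 300 bases, so reads may be shared with them. *Mad2l1* and *Racgap1* each have 1 such copy. Less similar copies with some expression were found for other members. Among them were copies of *Ndc80* (92.7% identity, means of 0.218 FPKM in WT-labelled and 1.095 FPKM in KO-labelled libraries), *Ube2c* (93.7%, 0.469 and 1.116 FPKM) and *Plk1* (93.5%, 0.763 and 0.558 FPKM). The difference between the 2 cyclins was not tested.

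*Foxm1* (ENSMUSG00000001517, chromosome 6 from 128362967 to 128376146), the transcription factor of late cell cycle genes, had 0.653, 1.65 and 0.237 FPKM in the WT-labelled libraries and 3.16, 2.67 and 2.63 FPKM in the KO-labelled ones. On the log2(FPKM + 0.5) scale the WT-labelled values differed among themselves more than those of any other member, but none reached the KO-labelled range. Its log2 fold change was 1.44 with the largest standard error of the set, 0.36 (limma adjusted p = 0.0207), and leaving out WT-labelled replicate 1 or any KO-labelled replicate raised the adjusted p to between 0.0513 and 0.0679.

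Mitotic kinases were higher in 6 of 6, with a median log2 fold change of 1.01. *Plk1* (ENSMUSG00000030867, chromosome 7 from 122159439 to 122169873), the Polo-like kinase of spindle and centrosome maturation, had 4.55, 3.76 and 3.64 FPKM in the WT-labelled libraries and 8.74, 8.89 and 7.65 FPKM in the KO-labelled ones. The groups did not overlap, and the log2 fold change was 1.00 (SE 0.12, limma adjusted p = 0.000845). *Aurkb* (ENSMUSG00000020897, chromosome 11 from 69045647 to 69051664), the kinase of the chromosomal passenger complex, had 1.51, 1.27 and 1.59 FPKM against 4.08, 4.07 and 3.38 FPKM. Here too the lowest KO-labelled library lay above every WT-labelled one, with a log2 fold change of 1.15 (SE 0.12, limma adjusted p = 0.000589). *Bub1* (ENSMUSG00000027379, chromosome 2 from 127801122 to 127831865), a kinase of the spindle checkpoint, had 1.68, 1.07 and 1.25 FPKM against 3.49, 2.91 and 3.22 FPKM. All 3 KO-labelled libraries were the higher ones, with a log2 fold change of 1.03 (SE 0.15, limma adjusted p = 0.00235).

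*Aurka* (ENSMUSG00000027496, chromosome 2 from 172356190 to 172370535), the centrosomal Aurora kinase, had the smallest change of any member that passed. It had 3.88, 3.00 and 3.76 FPKM in the WT-labelled libraries and 5.79, 5.78 and 5.72 FPKM in the KO-labelled ones. The KO-labelled values were nearly equal and all above the WT-labelled ones, with a log2 fold change of 0.64 (SE 0.11, limma adjusted p = 0.00511). *Ttk* (ENSMUSG00000038379, chromosome 9 from 83834689 to 83872389), the checkpoint kinase MPS1, was expressed at 0.451, 0.350 and 0.808 FPKM against 1.27, 1.13 and 1.07 FPKM. The groups did not overlap, but WT-labelled replicate 3 came close, and the log2 fold change was 0.70 (SE 0.19, limma adjusted p = 0.0265). Leaving out any 1 library other than WT-labelled replicate 3 raised the adjusted p of *Ttk* to between 0.0564 and 0.0892. *Melk* completed the kinases, with a log2 fold change of 1.30 (limma adjusted p = 0.00051).

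Among the genes of the spindle checkpoint and the exit from mitosis, 5 of 6 were higher and 1 did not pass. *Cdc20* (ENSMUSG00000006398, chromosome 4 from 118432901 to 118437352), the activator of the APC/C that the checkpoint holds back, had the highest mean of the members, 9.82 FPKM. Its values were 6.43, 6.09 and 6.89 FPKM in the WT-labelled libraries and 13.7, 14.1 and 11.8 FPKM in the KO-labelled ones. The log2 fold change was 0.97 (SE 0.10, limma adjusted p = 0.000551), with no overlap. *Ube2c* (ENSMUSG00000001403, chromosome 2 from 164769898 to 164778822), the ubiquitin-conjugating enzyme of the APC/C, had 4.23, 3.81 and 5.35 FPKM against 9.05, 8.68 and 11.8 FPKM. Replicate 3 was the highest library in both groups, and the log2 fold change was 1.06 (SE 0.16, limma adjusted p = 0.0028).

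*Espl1* (ENSMUSG00000058290, chromosome 15 from 102296266 to 102324357), separase, the protease that cuts cohesin at anaphase, was among the 3 lowest members. It had 0.622, 0.641 and 0.398 FPKM in the WT-labelled libraries and 1.73, 1.53 and 1.25 FPKM in the KO-labelled ones. Its groups did not overlap, with a log2 fold change of 0.93 (SE 0.16, limma adjusted p = 0.0048). The checkpoint proteins *Bub1b* and *Mad2l1* had log2 fold changes of 1.04 and 0.89 (limma adjusted p = 0.000355 and 0.00145).

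*Pttg1* (ENSMUSG00000020415, chromosome 11 from 43420250 to 43426251) encodes securin, the inhibitor that separase is freed from at anaphase. It had 7.69, 9.56 and 12.7 FPKM in the WT-labelled libraries and 6.97, 7.78 and 7.60 FPKM in the KO-labelled ones. The groups overlapped, since WT-labelled replicate 1 lay below KO-labelled replicate 2, and the WT-labelled libraries were the widely spread group, with 9.99 ± 2.55 FPKM (SD, n = 3) against 7.45 ± 0.421 FPKM (SD, n = 3). The log2 fold change was -0.37 (SE 0.17, limma adjusted p = 0.138). Without WT-labelled replicate 1 it was -0.54 (limma adjusted p = 0.0427), so that 1 library decided whether *Pttg1* was called lower. Securin was second to *Cdc20* in mean FPKM and first of the members in the WT-labelled libraries.

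Kinetochore and passenger genes were higher in 7 of 7, and their median ratio of mean FPKM, 3.01, was the largest of the role groups, although their median log2 fold change was 0.98 because several were low. *Birc5* (ENSMUSG00000017716, chromosome 11 from 117849251 to 117855743), survivin, a passenger protein, had 1.97, 1.64 and 2.56 FPKM in the WT-labelled libraries and 5.94, 6.54 and 6.10 FPKM in the KO-labelled ones. Every KO-labelled value lay far above the WT-labelled ones, with a log2 fold change of 1.40 (SE 0.15, limma adjusted p = 0.000527). *Cenpa* (ENSMUSG00000029177, chromosome 5 from 30666777 to 30674830), the centromeric histone H3 variant, had 2.07, 2.08 and 2.24 FPKM against 4.11, 4.94 and 5.03 FPKM. No overlap was seen, and the log2 fold change was 0.98 (SE 0.11, limma adjusted p = 0.000751).

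*Cenpf* (ENSMUSG00000026605, chromosome 1 from 189640606 to 189688086), a large kinetochore protein that gathers in G2, was the lowest member, with a mean of 0.737 FPKM. It had 0.298, 0.394 and 0.377 FPKM in the WT-labelled libraries, the only member with a WT-labelled mean under 0.5 FPKM, and 1.23, 1.13 and 0.992 FPKM in the KO-labelled ones. It therefore passed the filter only through its KO-labelled values. The log2 fold change was 0.92 (SE 0.14, limma adjusted p = 0.00242), and the ratio of means was 3.14. *Ndc80* and *Nuf2*, partners in the complex that grips microtubules, had log2 fold changes of 1.19 and 1.20, *Cenpe*, a kinetochore motor, had 0.97 and *Cdca8*, borealin, had 0.70 (limma adjusted p = 0.000741, 0.00083, 0.0034 and 0.00933).

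All 8 spindle genes were higher, and the median of their log2 fold changes was 1.08. *Kif11* (ENSMUSG00000012443, chromosome 19 from 37376403 to 37421859), the motor that pushes the spindle poles apart, had 1.03, 1.11 and 0.721 FPKM in the WT-labelled libraries and 3.19, 3.51 and 2.99 FPKM in the KO-labelled ones. The groups were well apart, with a log2 fold change of 1.37 (SE 0.14, limma adjusted p = 0.000531). The other spindle members, *Kif2c*, *Kif4*, *Tpx2*, *Nusap1*, *Hmmr*, *Tacc3* and *Ckap2l*, had log2 fold changes between 0.80 (*Tacc3*) and 1.22 (*Hmmr*). *Tacc3* had the weakest call of the group (limma adjusted p = 0.0101), with 3.17, 3.20 and 3.91 FPKM against 5.69, 5.40 and 8.06 FPKM and replicate 3 the highest in both groups.

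The 6 genes of the midzone and of cytokinesis were all higher, and their median log2 fold change of 1.25 was second among the role groups of more than 1 gene. *Anln*, anillin of the contractile ring, had 1.54, 1.36 and 1.34 FPKM in the WT-labelled libraries and 4.55, 4.32 and 4.56 FPKM in the KO-labelled ones. Both groups were tight and apart, with a log2 fold change of 1.38 (SE 0.10, limma adjusted p = 0.000111). *Kif23*, part of the centralspindlin complex, had the largest ratio of means, 3.56, and its partner *Racgap1* had a ratio of 2.34. Log2 fold changes of the group ran from 0.93 for *Ect2*, which activates the GTPase RhoA at the division plane, through *Kif20a* (1.24) and *Prc1* (1.27) to *Anln*. The exons of *Kif20a* share 1271 bases with *Cdc23* and those of *Prc1* share 911 bases with *Rccd1*, in each case on the opposite strand. Members of other role groups also share exonic bases with another gene. Among them are *Ncapg* (944 bases with *Lcorl*), *Kif4* (832 with *Pdzd11*), *Ube2c* (592 with *Tnnc2*) and *Ccna2* (510 with *Exosc9*), all on the opposite strand. *Foxm1* shares 144 bases with *Tex52* on the same strand. Whether reads were counted by strand is not given in the sources used here.

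Genes of chromosome structure were higher in 6 of 6, with a median log2 fold change of 1.01. *Top2a* (ENSMUSG00000020914, chromosome 11 from 98992943 to 99024189), the topoisomerase that untangles sister chromatids, had 4.45, 4.14 and 4.07 FPKM in the WT-labelled libraries and 11.3, 11.5 and 11 FPKM in the KO-labelled ones. Its log2 fold change of 1.32 had one of the smallest errors of the set (SE 0.08, limma adjusted p = 6.01e-05). *Smc4* (ENSMUSG00000034349, chromosome 3 from 69004738 to 69034623), a core subunit of condensin, ranked 3 in mean FPKM, with 5.50, 5.14 and 5.11 FPKM against 11.3, 11.3 and 11.9 FPKM. The groups did not overlap, with a log2 fold change of 1.06 (SE 0.08, limma adjusted p = 0.000149). The other condensin subunits *Smc2*, *Ncaph* and *Ncapg* had log2 fold changes of 0.98, 1.00 and 0.95.

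*Mki67* (ENSMUSG00000031004, chromosome 7 from 135689784 to 135716361), which encodes the proliferation marker Ki-67, had 4.71, 4.50 and 3.04 FPKM in the WT-labelled libraries and 9.48, 9.77 and 6.92 FPKM in the KO-labelled ones. Replicate 3 was the lowest library in both groups, and none of the groups' values overlapped. The log2 fold change was 1.01 (SE 0.19, limma adjusted p = 0.00707). The remaining member, *Cdca3*, which promotes the destruction of the mitotic inhibitor WEE1, had a log2 fold change of 0.90 (limma adjusted p = 0.00136).

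**Figure D3:**
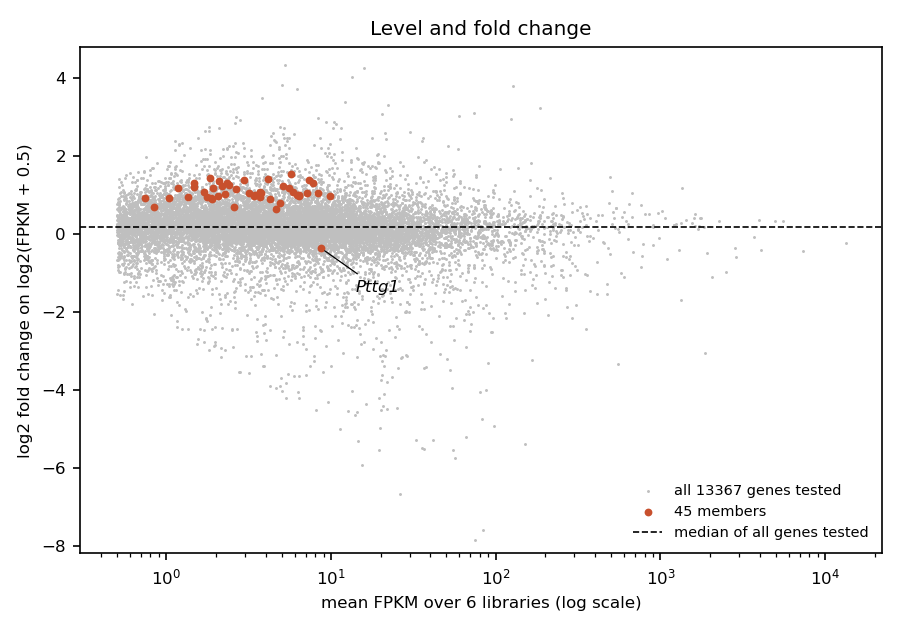
Mean FPKM over the 6 libraries (log axis) against the log2 fold change of the KO-labelled against the WT-labelled libraries, for the 13367 tested genes (grey) and the 45 members (red), with the median of all tested genes dashed. The members lie between 0.737 and 9.82 FPKM and, other than *Pttg1*, between 0.64 and 1.53, above the median of 0.19.

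Most genes of mitosis outside the set were higher as well. Of 87 such genes 81 were tested, 65 were higher at an adjusted p under 0.05, 0 were lower and 16 did not pass, with a median log2 fold change of 0.84. The filter takes the mean over all libraries, so some genes low in the WT-labelled libraries were tested only through their KO-labelled values. *Aspm* and *Cenpm*, with WT-labelled means of 0.269 and 0.34 FPKM, were among them, and the filter favours a call as higher for such genes. With no filter, 60 genes of the list were higher, beside 11.3% of the 28101 genes then tested. The adjustment then runs over more genes, so this count does not measure how far the filter favours such calls. *Cenpm* and *Pimreg* led, at 1.54 and 1.41 (limma adjusted p = 0.000264 and 0.000387). *Cenpm*, a centromere protein, had 0.253, 0.408 and 0.357 FPKM in the WT-labelled libraries and 1.83, 2.12 and 1.86 FPKM in the KO-labelled ones. *Zw10*, of the checkpoint complex that recruits dynein, was at the other end with -0.19 (limma adjusted p = 0.277). Genes that did not pass included 4 of the 5 APC/C subunits in the list, *Cdc16*, *Cdc27*, *Anapc1* and *Anapc5*, the APC/C activator *Fzr1*, the checkpoint protein *Bub3* and the CDK subunits *Cks1b* and *Cks2*, which were chosen for naming after their values were seen. The other subunit, *Anapc11*, was higher, with a log2 fold change of 0.59 (limma adjusted p = 0.0378). *Bub3* had 10.3, 10.1 and 12.7 FPKM against 9.71, 10.9 and 12.2 FPKM, and its groups overlapped.

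Most DNA replication genes were higher too. All 48 were tested, 33 were higher, 0 were lower and 15 did not pass, with a median log2 fold change of 0.67. *Mcm5*, of the replicative helicase, had 5.0, 4.73 and 4.86 FPKM in the WT-labelled libraries and 12.3, 13.2 and 13.3 FPKM in the KO-labelled ones, a log2 fold change of 1.32 (limma adjusted p = 5.5e-05). *Tk1*, thymidine kinase, was next with 1.31 (limma adjusted p = 0.000973). *Orc1*, of the origin recognition complex, was the lowest, with -0.09 (limma adjusted p = 0.648). Whether the lists differ in their change was not tested.

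Regulators of G1 showed a mixed picture. Of 12 G1 cyclins, CDKs and factors 4 were higher, 0 were lower and 8 did not pass, a share of 33.3% beside the 27.1% of all tested genes, with a median log2 fold change of 0.31. The largest were *Cdk6* with 1.05 and *Ccnd1*, cyclin D1, with 0.96 (limma adjusted p = 0.00298 and 0.000454), and the lowest was *Cdc25a* with -0.16 (limma adjusted p = 0.415). *Ccnd1* stood at 32.7, 32.3 and 27.3 FPKM in the WT-labelled libraries and at 61.4, 61.5 and 57.2 FPKM in the KO-labelled ones. Of 13 genes of the DREAM and RB families 12 were tested, 4 were higher and 0 were lower, with a median of 0.30. Here too the share was 33.3%, beside the 27.1% of all tested genes. *Rbl2*, the p130 protein of the DREAM complex, had 1.04 and *Rb1* had 0.78 (limma adjusted p = 0.000949 and 0.0032), and *Lin54*, the subunit that touches the CHR, had -0.17 (limma adjusted p = 0.267).

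Most CDK inhibitors, which restrain the cell cycle, were higher. Of 7 tested, 5 passed as higher, 0 as lower and 2 did not pass. *Cdkn1c* (p57) had 3.11, 2.61 and 3.35 FPKM in the WT-labelled libraries and 10.6, 8.48 and 13.8 FPKM in the KO-labelled ones, a log2 fold change of 1.68 (limma adjusted p = 0.000635). *Cdkn2c* (p18) followed with 1.23 (limma adjusted p = 0.000531). *Cdkn1a* (p21), the most abundant of the inhibitors here, had 75.0, 68.1 and 71.6 FPKM against 60.6, 61.3 and 63.5 FPKM. All 3 KO-labelled values of *Cdkn1a* were below the WT-labelled ones, but its log2 fold change of -0.21 did not pass (limma adjusted p = 0.068). It was the only gene of the CDK inhibitors, the members, the other mitosis, replication and G1 genes and the DREAM and RB genes that was lower at an unadjusted p under 0.05 in the limma fit.

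Targets of p53, which arrests the cycle after DNA damage, were higher in 8 of 14 and lower in 1, and 5 did not pass. The share of 57.1% higher stood beside 27.1% of all tested genes. *Cdkn1a* was counted above with the CDK inhibitors and not in this list. *Sesn1*, a stress-induced regulator of growth signalling, had 3.88, 3.07 and 4.07 FPKM in the WT-labelled libraries and 39.0, 39.8 and 43.8 FPKM in the KO-labelled ones, a log2 fold change of 3.31 (limma adjusted p = 5.02e-06). *Bbc3*, the death-promoting protein PUMA, had 1.61 (limma adjusted p = 0.000135). *Mdm2*, the ubiquitin ligase of p53, was the gene that fell, from 44.1, 42.8 and 42.2 FPKM to 25.5, 25.2 and 25.6 FPKM, with a log2 fold change of -0.75 (limma adjusted p = 0.000345).

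**Figure D4:**
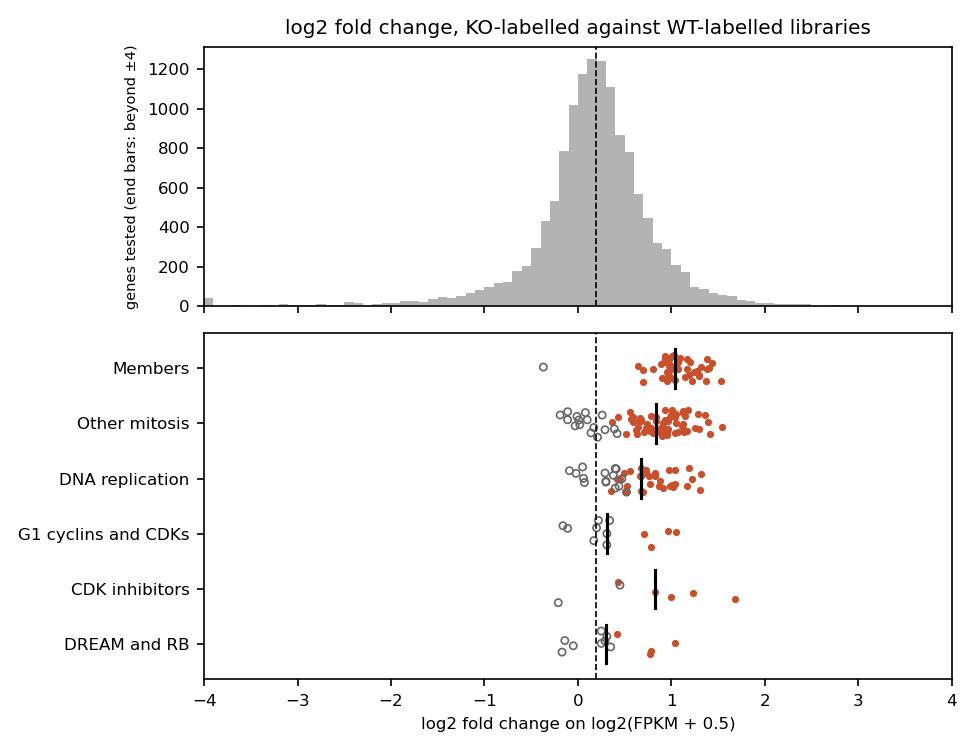
Log2 fold changes of the KO-labelled against the WT-labelled libraries: a histogram of the 13367 tested genes (top, values beyond 4 in the end bars) and the genes of the members and 5 related lists (bottom), filled red where called at an adjusted p under 0.05 and open where not, with a black bar at the median of each list and the overall median of 0.19 dashed. The medians run from 1.04 in the members through 0.84 in other mitosis genes and 0.67 in replication genes to 0.31 in G1 genes and 0.30 in DREAM and RB genes, with 0.83 in CDK inhibitors.

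Markers of other cells were read beside the members. Of 15 neutrophil markers 14 were tested, 12 were higher and 1 was lower in the KO-labelled libraries, and their sum was 223 to 288 FPKM in the WT-labelled libraries and 596 to 612 FPKM in the KO-labelled ones. *Ltf* and *Ngp*, granule proteins of maturing neutrophils, had log2 fold changes of 3.09 and 3.02 (limma adjusted p = 3.51e-06 and 1.13e-05), and the collagenase *Mmp8* had -1.12 (limma adjusted p = 0.000359). *Ly6g*, the surface protein of mature neutrophils on which the sort was gated, was listed at 0 in every WT-labelled library and at 0.660, 0.547 and 0.403 FPKM in the KO-labelled ones. The part of neutrophil RNA in the change of the members was not tested. Precursors of neutrophils divide, and of their 8 markers only *Cebpe* was tested and higher, with a log2 fold change of 1.20 (limma adjusted p = 0.00336). Its ratio of mean FPKM was 4.42. With a log2 fold change of 1.20 on the log2(FPKM + 0.5) scale, this puts its WT-labelled mean under 0.5 FPKM. *Cebpe* therefore passed the filter only through its KO-labelled values, and the filter favours a call as higher for such a gene. The sum of the 8 markers was 1.78 to 1.98 FPKM in the WT-labelled and 3.03 to 4.14 FPKM in the KO-labelled libraries. Of the untested ones, *Elane* and *Mpo*, named after their values were seen, were at or under 0.531 and 0.480 FPKM in every library. The part of precursor RNA in the change of the members was not tested either.

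Of 15 B-lineage markers 4 were tested and all 4 were higher, with a sum of 10.8 to 11.2 FPKM in the WT-labelled and 30.0 to 34.8 FPKM in the KO-labelled libraries. *Ighm*, the IgM heavy chain, led with a log2 fold change of 3.82 and *Cd79b* followed with 1.80 (limma adjusted p = 1.89e-05 and 0.000268), while *Ebf1* had the lowest, 0.65 (limma adjusted p = 0.00729). Of the 15 markers, 6 were listed at 0 in every library, *Rag1*, *Rag2* and *Igll1* among them. Of 10 T and NK cell markers *Cd4* was tested and was higher (log2 fold change 1.43, limma adjusted p = 0.000376), the sum was 2.12 to 2.57 against 5.77 to 7.33 FPKM, and *Cd3d* was listed at 0 in every library. Of 12 erythroid and progenitor markers *Car2* was tested and was lower (-1.83, limma adjusted p = 0.000144), with a sum of 2.50 to 3.78 against 0.479 to 0.805 FPKM, and *Flt3* was listed at 0 in every library.

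Of 14 markers of fibroblasts, endothelium and neural cells 8 were tested, 0 were higher and 3, *Dcn*, *Kdr* and *Col3a1*, were lower, with log2 fold changes of -1.04, -1.03 and -0.97 (limma adjusted p = 0.00218, 0.0049 and 0.000197). *Col1a2* and *Mbp* were the highest at 0.31 and 0.25, and neither passed (limma adjusted p = 0.0578 and 0.186). Their sum was 409 to 582 FPKM in the WT-labelled and 489 to 550 FPKM in the KO-labelled libraries, nearly all of it collagen, with *Col1a1* at 228 to 361 FPKM and not called. The macrophage markers themselves were higher in 3 of 10 (30.0%, beside 27.1% of all tested genes) and lower in 2 (beside 10.5% of all tested genes). Their sums were 6660 to 8020 FPKM in the WT-labelled and 7460 to 8130 FPKM in the KO-labelled libraries. *Mrc1*, the mannose receptor, had the largest log2 fold change, 2.96, *Mertk* had 0.72, and *Cd14*, a co-receptor for lipopolysaccharide, had the lowest, -3.33, with *Fcgr1* also lower at -1.83 (limma adjusted p = 2.08e-06, 0.0166, 6.82e-06 and 7.16e-06). Shares of these cells in the sorted samples were not measured by these libraries.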

How the data were processed

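Bulk RNA-seq of BMDMs was used, with 3 libraries per neutrophil genotype as labelled (*Cd177* WT or KO). The table holds FPKM that the authors had computed from the reads for each gene in each library, scaled to transcript length and library total, and no read counts were given with it. Per the submitters' processing notes the tools included fastp 0.17.1, HISAT2 2.1.0, DESeq2 1.18.1 and R 3.4.3, with no role given. The quantifier, annotation and genome build are not given in the sources used here, and labels and methods differ in the RNA reagent, the kit and the sequencer they name. Whole reads could not be recovered, because 39.7% to 43.6% of low values came within 0.1 of whole multiples, and no count test was run.

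Symbols and positions came from GENCODE M21 (GRCm38), matched by gene identifier for 99.7% of rows. The 13367 genes averaging 0.5 FPKM or more were tested with limma 3.58.1 in R 4.3.3 on log2(FPKM + 0.5), by lmFit and eBayes with trend, two-sided, with no covariate and Benjamini-Hochberg adjustment over all of them. On simulated data made like the comparison of the 3 KO-labelled with the 3 WT-labelled libraries, 124 of 200 genes changed by 1 on the log2 scale were recovered among 13367, with 6 false calls, and 0 genes were called with no change (5.22% had an unadjusted p under 0.05). Near-identical transcripts were sought with blastn 2.17.0, and the remaining steps ran in Python 3.11.15 (matplotlib 3.10.9, numpy 2.4.6, pandas 2.3.3).

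The members, the other gene lists and the rule for named genes were chosen with earlier results of these data known. Values in every library are given for 18 preset members, for the 3 highest and 3 lowest by mean FPKM, the 3 with the largest and the 3 with the smallest log2 fold change, and any member not called. Of other lists the 2 largest, the lowest and the calls in the rarer direction are named. Values of *Anln*, *Tacc3*, *Bub3* and the other genes outside the rule were added after they were seen. The alternatives were other pseudocounts, filters and scalings, robust eBayes, a replicate block, the omission of single libraries and the study's own threshold. No protein sequences were used.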

Additional observations from a re-analysis of the deposited data

How the results depend on the processing

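The count of members higher in the KO-labelled libraries stayed between 42 and 44 under every pseudocount, filter, scaling, variance estimate and left-out library, and was 26 at the study's threshold, where 25 other mitosis genes, 9 replication genes, and 893 higher and 592 lower genes of the whole table passed. The median log2 fold change of the members, 1.04 as reported, was 1.22 with a pseudocount of 0.1, 0.92 with a pseudocount of 1, 1.06 with a mean of at least 1 FPKM (43 members tested), 0.97 with upper-quartile scaling, 0.85 with quantile normalization, 1.21 as TPM and 0.86 after scaling by the median of ratios, and 1.02 to 1.07 with 1 library left out. Over all tested genes, 72.0% of the calls were higher in the KO-labelled libraries, against 63.6% with upper-quartile scaling (2878 higher, 1650 lower), 55.7% with quantile normalization (2426 and 1928) and 49.3% after scaling by the median of ratios (2156 and 2215). Leaving out 1 library gave 0 to 1 members lower, *Pttg1* without WT-labelled replicate 1, and 2420 to 4259 genes higher and 1059 to 1707 lower over the whole table. Apart from the study's threshold, the members that changed their call were *Ttk*, *Foxm1*, *Cdca8* and *Pttg1*, and none changed direction. *Ttk* also lost its call with no filter, median-of-ratios scaling or quantile normalization (limma adjusted p = 0.0707, 0.0657 and 0.145), *Foxm1* with no filter (0.0617), and *Cdca8* with quantile normalization. The causes were not tested.

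The groups share replicate numbers, but neither the labels nor the methods say that a number marks a common batch, and the deviations of same-numbered libraries correlated at 0.116, 0.036 and 0.264, so the libraries were not treated as paired. WT-labelled replicates 1 and 2 correlated best with KO-labelled replicates 2 and 1. With the replicate block 44 members were higher and 0 lower, among 4253 higher and 1681 lower genes. Without replicate 3 of both groups, an alternative chosen after seeing the data, 44 members were higher, with a median of 1.05. FPKM is scaled to transcript length and the depth is a rough estimate, so the number of fragments behind the lowest members is not known. FPKM gives no counting interval for them.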
